A study of Mus musculus with 12 samples.

Results

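Broad methylation gains were long stretches of DNA over which retinas without TET enzymes held more modified cytosine than control retinas. They were chosen by 4 limits on the deposited list of differentially methylated regions from whole-genome bisulfite sequencing (WGBS): an autosomal position, a length of at least 3000 bp, a mean level higher in the mutant by less than 40 percentage points, and a control level from 20% to below 80%. Of 193836 listed regions, 667 met all of them (0.344%). These 667 regions covered 3.02 Mb and 39720 listed CpGs, 3.24% of the bases and 2.14% of the CpGs of the 188450 autosomal gains. The list held 784 regions of at least 3000 bp, of which 17 had a lower level in the mutant, 4 were gains on the X or Y chromosome and 96 were autosomal gains outside the limits on level.

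Cytosine modification was measured in genomic DNA of whole retina, all from mice at postnatal day 21. The Tet tcKO group carried floxed alleles of Tet1, Tet2 and Tet3 and a Chx10-Cre-GFP transgene, bred to carry 2 copies of Cre so that fewer cells escape recombination, which deletes the 3 genes in retinal progenitors. The control group was of the same age and came from Cre- breeders, and the labels give C57 BL/6J as the strain of both. Each group had 3 libraries by WGBS and 3 by bACE-seq, 12 in all. By the study's methods, the retinas of 2 animals were pooled for a sample, and both assays used the DNA left from the same extractions. The deposited lists hold 1 mean level per group and region, so no spread between replicates, test between groups or depth can be given for any level, and values over regions are descriptions. Whole retina mixes cell types, and a change in the proportions of cells cannot be told apart here from a change within cells. The labelled tissue was not checked against expression markers, since the lists hold no expression values.

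Methyl groups on cytosine (5mC) are laid down mainly at CpG dinucleotides. TET enzymes oxidise 5mC to 5-hydroxymethylcytosine (5hmC), which in neurons accumulates over the bodies of active genes and is also a step towards unmodified cytosine. WGBS reads 5mC and 5hmC together, whereas bACE-seq adds a deaminase that removes the signal of 5mC and so reads 5hmC alone. In rod photoreceptors, the most abundant cells of the mouse retina, large parts of rod genes are known to be unmethylated.

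The CpGs are what both assays read, and the stretches of 200 bases with the most CpGs show how they lie in 5 broad gains. They were taken outside untranslated exons, from the plus strand of GRCm38 (the sequence of mm10), and CpGs are in capitals. The Agpat3 stretch, at chr10:78287769-78287968, overlapped a coding exon in the longest broad gain. The Casz1 stretch was intronic, at chr4:148813545-148813744. The Ldha stretch, at chr7:46850210-46850409, overlapped a coding exon of a glycolytic gene. Zfp654 (intron, chr16:64845528-64845727) and Zfhx3 (overlapping a coding exon, chr8:108944964-108945163) held the highest and the lowest 5hmC among broad gains with 50% or more of their CpGs in a 5hmC loss.
Agpat3: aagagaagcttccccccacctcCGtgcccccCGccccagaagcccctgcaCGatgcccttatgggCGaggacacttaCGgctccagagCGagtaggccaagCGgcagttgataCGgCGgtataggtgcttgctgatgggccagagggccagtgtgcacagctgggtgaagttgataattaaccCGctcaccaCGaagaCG
Casz1: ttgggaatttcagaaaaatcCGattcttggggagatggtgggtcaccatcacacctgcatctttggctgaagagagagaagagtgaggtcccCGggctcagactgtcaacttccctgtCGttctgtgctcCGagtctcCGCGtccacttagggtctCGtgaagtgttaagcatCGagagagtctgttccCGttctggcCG
Ldha: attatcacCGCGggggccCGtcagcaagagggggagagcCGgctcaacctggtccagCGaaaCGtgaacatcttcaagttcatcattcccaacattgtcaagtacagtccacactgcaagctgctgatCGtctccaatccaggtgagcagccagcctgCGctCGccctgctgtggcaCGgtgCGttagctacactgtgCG
Zfp654: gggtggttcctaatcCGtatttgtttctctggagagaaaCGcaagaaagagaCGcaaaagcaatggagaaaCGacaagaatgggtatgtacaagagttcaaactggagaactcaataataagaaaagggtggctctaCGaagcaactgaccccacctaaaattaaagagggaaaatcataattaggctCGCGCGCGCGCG
Zfhx3: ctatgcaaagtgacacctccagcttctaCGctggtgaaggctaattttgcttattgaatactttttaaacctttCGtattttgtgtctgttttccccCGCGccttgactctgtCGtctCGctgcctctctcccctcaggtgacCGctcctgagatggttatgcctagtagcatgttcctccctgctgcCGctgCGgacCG
These stretches held 12, 10, 12, 11 and 10 CpGs in that order, although CpGs were sparse over broad gains as a whole, with a median of 1.28 per 100 bp.

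The levels and lengths that follow are those the regions were selected on. The median length was 3834 bp (range 3000 to 22739 bp), 159 regions reached 5000 bp and 16 reached 10000 bp. The median number of CpGs was 53 (range 4 to 264). By WGBS, Cre- retinas had a median of 45.5% (quartiles 37.1% and 53.7%) and Tet tcKO retinas one of 74.3% (quartiles 66.6% and 79.8%), and the median rise was 27.2 percentage points. In shorter gains within the same limits on level, of which there were 145173, the medians were 61.0%, 80.3% and 17.0 points. Broad gains thus started lower in Cre- than shorter gains and ended at a lower level in Tet tcKO.

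The rule drew its lines through a continuous range. The shortest region inside it was chr9:77695475-77698474 in the noncoding gene Gm47790 (3000 bp, 41.4% to 76.0%), and the longest left out by length alone was chr1:190137261-190140259 in Prox1 (2999 bp, 54.9% to 78.0%). On the limit for the rise, a region of Kdm5b at 40.0 points was inside and a region of Slc1a7 at 40.1 points outside. On the lower limit for Cre-, a region of Kif21b at 20.1% was inside and a region of Lrit2 at 19.9% outside, the latter with a rise of 46.0 points. On the upper limit, a region of Cdk5rap1 at 79.7% was inside and an intergenic region at 81.5% outside. Of the 96 long gains left out, 60 rose by 40 points or more, 32 were under 20% in Cre- and 9 were at 80% or more, with 5 counted under both the first and another limit.

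**Figure D1:**
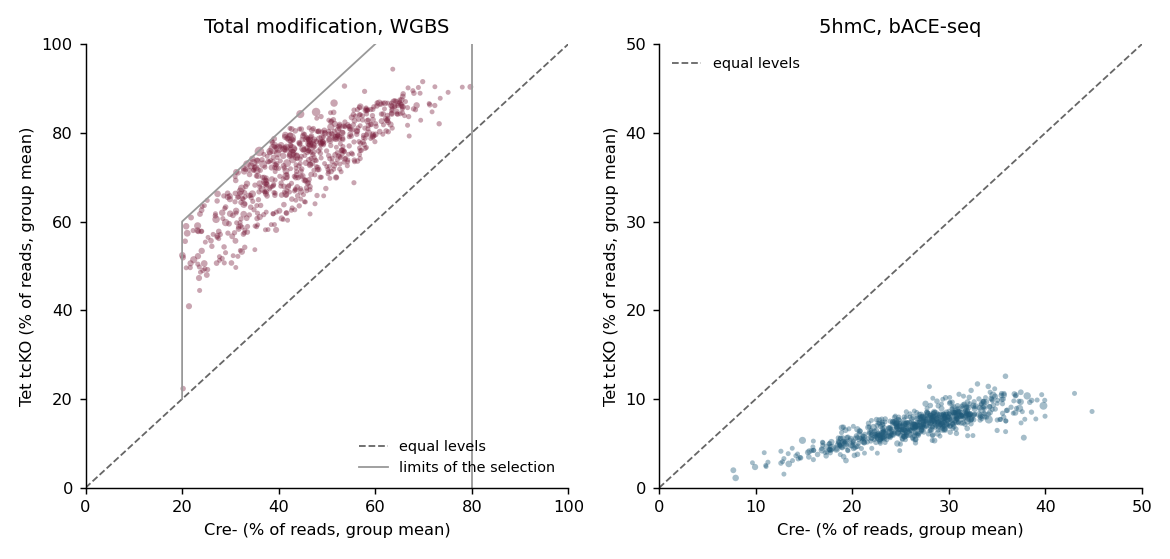
Each point is 1 broad gain, placed by its authors' mean level in Cre- (horizontal axis) and Tet tcKO (vertical axis), in percent of reads, with larger points for longer regions; the left panel shows total modification by WGBS for 667 regions, the right panel 5hmC by bACE-seq for the 658 with a listed bACE-seq region. Grey lines mark the limits of the selection, and all WGBS points lie above and all 5hmC points below the line of equal levels.

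The 5hmC values come from another assay and were not used to choose the regions. Of 667 broad gains, 658 (98.7%) overlapped a listed bACE-seq region by at least 1 bp, beside 84.2% of shorter gains and 83 of 96 long gains outside the limits. A long region has more chances to touch another, so the share of its CpGs is the better measure: a median of 77.0% of the CpGs of a broad gain lay in a 5hmC loss (a bACE-seq region with a lower level in Tet tcKO). In 579 broad gains (86.8%) 50% or more of the CpGs lay in one, and in 37 (5.55%) all did, beside 77.2% and 52.8% of shorter gains. Among shorter gains the median was 100%, with a lower quartile of 53.8%, against 61.9% in broad gains.

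The median 5hmC level, weighted by CpGs over the bACE-seq regions of a broad gain, came to 27.2% in Cre- (quartiles 22.9% and 30.8%) and to 7.16% in Tet tcKO (quartiles 5.88% and 8.18%). The medians in shorter gains were 18.3% and 4.55%, and in the long gains outside the limits 19.3% and 5.24%. All 658 broad gains with a value were lower in Tet tcKO, which follows from the list, since 592697 of its 592906 regions were losses. The share of the Cre- 5hmC level kept in Tet tcKO was 26.2% at the median (range 11.9% to 40.7%), beside 24.9% in shorter gains. Broad gains therefore differed from shorter gains more in the amount of 5hmC than in the share that was kept.

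WGBS minus bACE-seq approximates 5mC. It was best read in the 167 broad gains with at least 90% of their CpGs in 5hmC losses, because both assays then cover nearly the same CpGs. In these, the median WGBS level in Cre- was 56.6% and the median 5hmC level 29.3%, so that 5hmC made up 52.6% of modified cytosine at the median. The corresponding share was 30.8% in the 82784 shorter gains covered to that extent. In these broad gains the difference between the assays had a median of 26.5% (Cre-) and 72.8% (Tet tcKO).

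Among broad gains, those with more 5hmC in Cre- also kept more in Tet tcKO (Spearman's rho = 0.84 over 658 regions), a relation between 2 values of the same bACE-seq regions. The 5hmC level in Cre- also followed the WGBS level in Cre- (rho = 0.39) and ran against CpG density (rho = -0.29). WGBS reads 5hmC too and its Cre- level was used for the selection, so the former relates a part to its whole. By contrast, the size of the 5hmC change showed almost no rank relation to the size of the WGBS rise (rho = -0.02). These values describe regions of the same libraries and carry no test. When broad gains were divided into 4 classes of like number by their WGBS level in Cre-, the median 5hmC level was 23.2% in the lowest class and 30.1% in the highest. The median share of CpGs in 5hmC losses was 58.7% in the lowest class and 92.1% in the highest. These class values share the limit above, since WGBS also reads 5hmC. A transcription start site lay in 23.4% of regions of the lowest class, against 7.19% of the highest.

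5hmC was not even along a broad gain. Of the 667 regions, 547 held at least 2 bACE-seq regions and 264 at least 3, with a maximum of 11. In these 264, the median of the lowest level inside a region was 15.6% and that of the highest 31.1%, and the median range was 14.5 points. In the longest, for example, the 11 bACE-seq regions had Cre- levels from 9.63% to 35.6%.

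Several features changed steadily with the length of a gain. Among gains within the limits on level, the median 5hmC level in Cre- was 17.6% under 500 bp, 20.7% from 1000 to 1999 bp, 24.7% from 2000 to 2999 bp and 27.2% from 3000 to 4999 bp. It did not increase beyond that, with 27.2% from 5000 to 9999 bp and 26.8% in the 16 longest. The share of midpoints inside an annotated gene was 61.7% in the shortest class, 86.0% just below the length limit, 91.9% from 3000 to 4999 bp, 98.6% from 5000 to 9999 bp and 100% in the 16 longest. CpG density fell from a median of 2.25 per 100 bp in the shortest class to 1.29 and 1.24 in the classes from 3000 to 4999 bp and from 5000 to 9999 bp. A called region needed at least 3 CpGs, which sets a floor to the density of short regions. How far this shaped the fall was not tested. The share that held a start site was 6.38% from 2000 to 2999 bp, 10.2% from 3000 to 4999 bp and 30.1% from 5000 to 9999 bp, and longer regions have more room for one.

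**Figure D2:**
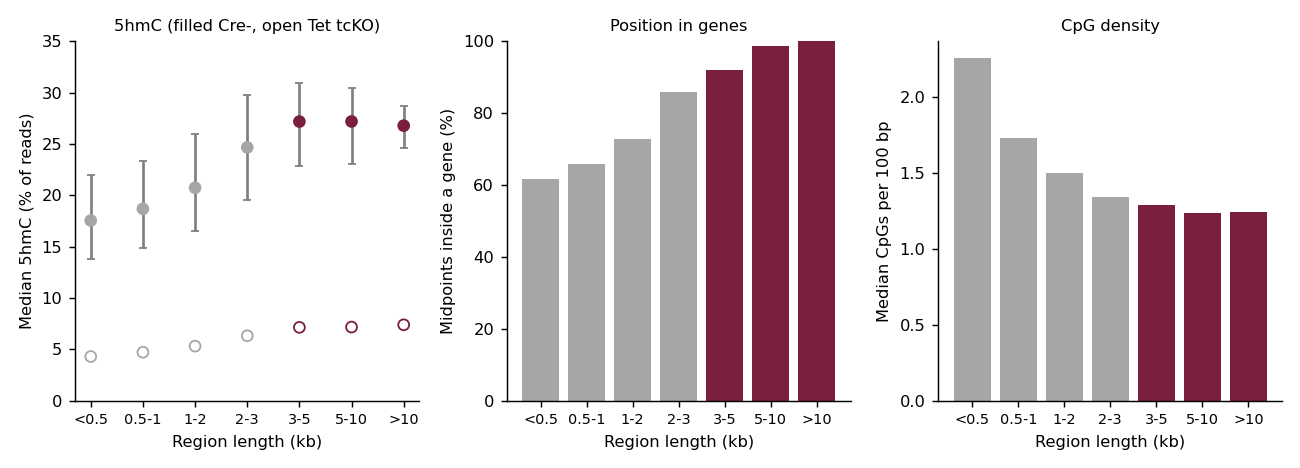
Gains within the limits on level, by length in kb, with broad gains in dark red and shorter gains in grey; the panels show the median 5hmC level in Cre- (filled, bars from the lower to the upper quartile) and Tet tcKO (open), the share of midpoints inside a gene, and the median number of CpGs per 100 bp. 5hmC in Cre- increases from 17.6% to 27.2% with length while CpG density decreases from 2.25 to 1.24. A called region needed at least 3 CpGs, which sets a floor to the density of short regions.

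Broad gains lay mainly in introns. Of their bases, 87.4% were intronic, 2.66% coding, 3.73% in untranslated or noncoding exons and 6.21% intergenic, whereas 62.1% of the bases of shorter gains were intronic and 32.5% intergenic. By midpoint, 12.9% lay in promoters (within 2 kb of a start site), 81.3% elsewhere in gene bodies and 5.85% between genes, beside 9.46%, 56.9% and 33.6% of shorter gains. The median distance from midpoint to the nearest start site was 6493 bp, against 22271 bp for shorter gains. Protein-coding genes were overlapped by 613 broad gains, and 34 touched no gene.

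Within host genes, broad gains took up the largest share of bases a few kb after the start. The 554 with a midpoint downstream of the nearest start site of the host lay at a median distance of 7653.5 bp from it (quartiles 3360 and 22384 bp), and 310 of them lay within 10 kb. Along the host genes, broad gains covered 8.92% of the bases from 0 to 1 kb after the gene start, 24.5% from 1 to 2 kb, 37.6% from 3 to 4 kb and 14.7% from 9 to 10 kb. They covered 5.46% of the last kb before the start. 5hmC losses, which the rule did not use, covered 12.9%, 54.7% and 61.4% of the bases from 0 to 1, 3 to 4 and 9 to 10 kb. The first kb after the start was therefore low in both, and the stretch behind it held both.

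**Figure D3:**
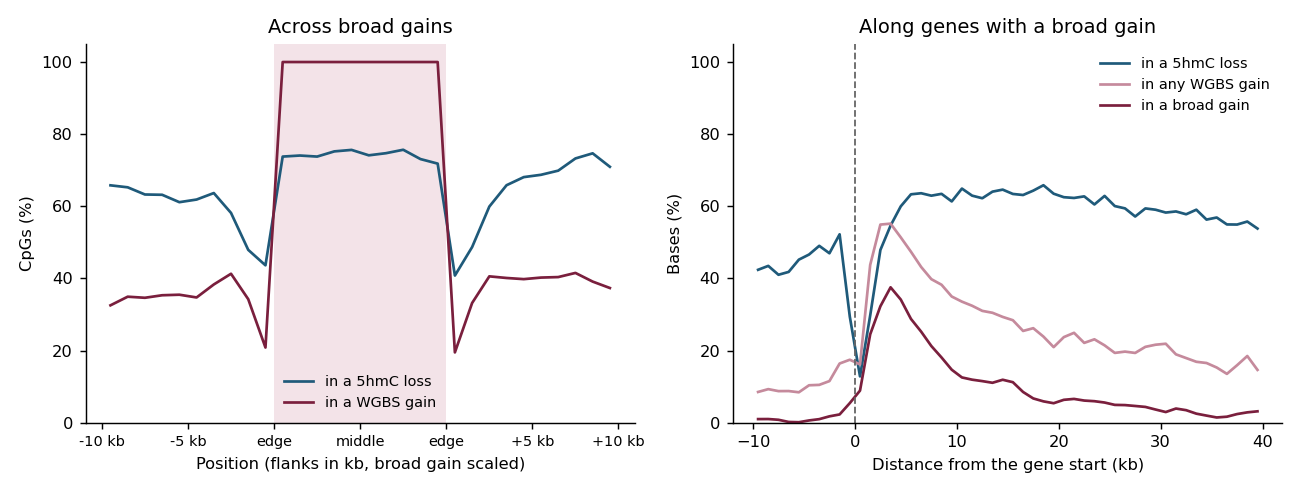
Left, percent of CpGs that lie in a 5hmC loss or in a WGBS gain of any length, over 667 broad gains scaled to equal length (shaded) and 10 kb on each side in steps of 1 kb; right, percent of bases in a 5hmC loss, in any WGBS gain or in a broad gain, by distance in kb from the gene start for the 482 protein-coding genes that hold a broad gain. Broad gains peak at 37.6% of bases from 3 to 4 kb, where 54.7% of bases lie in a 5hmC loss.

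Across broad gains, 74.1% of CpGs lay in a 5hmC loss, with 71.8% to 75.7% in each of 10 equal steps along the length. In the first kb on each side the share was 42.2%, and over 10 kb on each side it was 60.6%. The 5hmC level of the CpGs in losses was 26.5% inside and 25.6% over the 10 kb flanks in Cre-. These levels cover only CpGs in listed losses, which were a smaller share outside. A bACE-seq region that crosses an edge gives 1 mean to both sides, so the level at the edge itself is not resolved. The flanks also held other WGBS gains, which took up 20.2% of CpGs in the first kb and 35.2% over 10 kb, and 240 broad gains (36.0%) had another gain within 500 bp. CpG density was 1.73 per 100 bp in the first kb of flank against 1.34 inside. The edges thus lay in sequence with more CpGs, fewer of them in a listed region.

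Broad gains often lay next to each other. Of the 667, 202 (30.3%) had another within 10 kb, and they formed 83 clusters of 2 or more and 23 of 3 or more. The largest cluster held 7 broad gains over Ccdc85c, which filled 65.9% of 56139 bp at chr12:108217739-108273877. Clusters of 5 lay over Map4k3, which encodes a kinase, over Casz1 and over Fam222a, where broad gains filled 90.8% of 35380 bp. By chromosome, broad gains ranged from 2.02 per 100000 CpGs on chromosome 14 to 4.95 on chromosome 9. A WGBS loss lay within 10 kb of 16 broad gains. Losses were a small part of the whole list, and no such count is given here for shorter gains.

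Sequence composition differed moderately from that of shorter gains. Median GC content was 46.3% against 47.7%, the ratio of observed to expected CpGs 0.241 against 0.362, and the share of repeat-masked bases 16.6% against 9.50%. The minimum number of CpGs of a called region bears on the ratio in short regions. A window of 200 bp with the composition of a CpG island (GC over 50% and an observed to expected ratio over 0.6) was present in 225 broad gains (33.7%). Long regions have more room for such a window, and no share is given here for shorter gains. As letter strings, 2 motifs were counted on both strands, TAATCC, the core bound by the photoreceptor homeobox factors CRX and OTX2, and TGCTGAC, part of the site of the rod factor NRL, neither of which contains the other. TAATCC occurred 5.18 times per 10 kb in broad gains, 4.36 times in flanks of the same length and 5.48 times in shorter gains, and TGCTGAC 1.92, 1.53 and 2.01 times. Their densities in broad gains were thus above those of the flanks and below those of shorter gains.

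Promoters with a start site inside a broad gain held fewer CpGs at the median than all autosomal promoters. The lower limit on the Cre- level bears on which promoters can lie in a broad gain, so this contrast partly reflects the selection. RefSeq promoters (250 bases before to 50 after a start, GRCm38.p6) had their start in a broad gain in 67 cases, from 61 genes. They held a median of 4 CpGs (quartiles 2 and 6), beside 7 (quartiles 3 and 21) in all 31396 autosomal promoters. TAATCC was present in 19 of the 67 (28.4%) and in 7.07% of all promoters, and TGCTGAC in 5 (7.46%) and 4.63%. All promoters were not matched to the 67 for CpG number or base composition. The 19 promoters included those of Aipl1, Cnga1, Cngb1, Ctbp2, Lrit1, Mpp4, Rpgrip1, Sag and Unc119. The rest were those of AI847159, E130310I04Rik, Gm16104, Gm2233, Gpsm1, Herc3, Osbp2, Slco4a1 and Zbtb18. The 5 with TGCTGAC were those of Guk1, Nxnl1, Pde6b, Pfkfb2 and Plekhb1. A match is a string of letters in the window and not a measured binding site.

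The 250 bases upstream of 4 of these starts show how few CpGs such a promoter can hold. They are printed 5′ to 3′ on the strand of the gene, with TAATCC or TGCTGAC on either strand in capitals, from RefSeq on GRCm38. The Sag sequence is chr1:87803430-87803679 (plus strand), that of Cngb1 chr8:95306586-95306835 (minus), that of Lrit1 chr14:37054580-37054829 (plus) and that of Pde6b chr5:108388123-108388372 (plus).
Sag: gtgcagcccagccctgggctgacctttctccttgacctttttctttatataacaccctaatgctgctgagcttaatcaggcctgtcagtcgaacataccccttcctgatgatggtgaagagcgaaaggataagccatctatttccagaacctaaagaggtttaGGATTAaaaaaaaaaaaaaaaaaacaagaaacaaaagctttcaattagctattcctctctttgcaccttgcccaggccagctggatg
Cngb1: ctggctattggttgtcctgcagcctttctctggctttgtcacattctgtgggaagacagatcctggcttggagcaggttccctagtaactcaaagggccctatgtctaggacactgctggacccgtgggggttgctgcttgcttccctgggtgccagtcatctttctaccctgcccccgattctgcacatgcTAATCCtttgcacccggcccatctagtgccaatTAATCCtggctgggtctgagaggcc
Lrit1: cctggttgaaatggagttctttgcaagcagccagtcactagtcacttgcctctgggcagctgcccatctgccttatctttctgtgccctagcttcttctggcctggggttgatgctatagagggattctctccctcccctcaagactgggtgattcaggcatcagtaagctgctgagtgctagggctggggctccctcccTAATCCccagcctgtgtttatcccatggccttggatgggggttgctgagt
Pde6b: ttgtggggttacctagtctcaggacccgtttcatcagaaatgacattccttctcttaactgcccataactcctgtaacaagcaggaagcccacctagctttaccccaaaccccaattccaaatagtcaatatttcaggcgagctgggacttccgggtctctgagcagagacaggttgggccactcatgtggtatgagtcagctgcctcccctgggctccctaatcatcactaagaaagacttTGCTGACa
They held 2, 3, 0 and 3 CpGs. The first letter of the match lay 87 bases before the start in Sag, 58 and 25 in Cngb1, 50 in Lrit1 and 8 in Pde6b. The broad gains around them rose from 42.9% to 76.4% in Sag, from 31.6% to 71.0% in Cngb1, from 29.4% to 66.4% in Lrit1 and from 40.0% to 76.5% in Pde6b.

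The 101 broad gains that held a start site of any annotated transcript had median WGBS levels of 40.0% (Cre-) and 72.8% (Tet tcKO), and median 5hmC levels of 25.6% and 6.70%. In the 566 without one the medians were 46.5%, 74.6%, 27.4% and 7.22%. Both kinds thus differed little in 5hmC. The island composition was found in 51 of the 101, beside 225 of all 667 broad gains.

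To ask which genes carry broad gains, protein-coding gene bodies were intersected with them. Of 20780 autosomal protein-coding genes, 482 (2.32%) held at least 1 bp of a broad gain, 384 of them 1 and 98 of them 2 or more. Long genes offer more room: the median length of a host gene was 64466 bp against 17636 bp for all. The most bases were in Casz1 (41976 bp in 8 broad gains), Ccdc85c (36990 bp in 7), the readthrough gene Gm20388, which spans 4434882 bp and shares its 8 with the genes inside it, Epb41 (36118 bp in 6) and Ankrd33b (33665 bp in 3). Casz1 is a zinc-finger transcription factor of retinal development and Epb41 a protein of the membrane skeleton.

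Genes of rods, photoreceptor regulators, the outer segment and the ribbon synapse held broad gains in a larger share of cases than genes of cones or of the other retinal cell types. The lists were written with earlier results of these data known, so their counts are descriptions, to be read beside the 2.32% of all genes. Rod genes held a broad gain in 15 of 21 cases (71.4%), photoreceptor regulators in 12 of 15, ribbon synapse genes in 8 of 17, aerobic glycolysis genes in 7 of 19 and outer segment and cilium genes in 7 of 20. Taken once each, 40 of 71 genes of the rod, regulator, outer segment and ribbon lists (56.3%) were hosts. Of 104 genes for bipolar, amacrine, horizontal, ganglion, Müller glial, progenitor, microglial and endothelial cells, 4 (3.85%) were hosts, Slc6a9, Prox1 and Kdr among them. Cone genes (0 of 13), Müller glia genes (0 of 15), ganglion cell genes (0 of 13), mitochondrial complex I genes (0 of 20) and olfactory receptor genes (0 of 1127) held none. Gene length differed too, with a median of 42520 bp for the 71 photoreceptor list genes, 22551 bp for the 104 genes of other cell types and 17636 bp for all genes. Among single lists the median was 16871 bp for rod genes, 30686 bp for cone genes, 75263 bp for outer segment and cilium genes and 7996 bp for progenitor genes. The part of gene length in these counts was not tested.

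**Figure D4:**
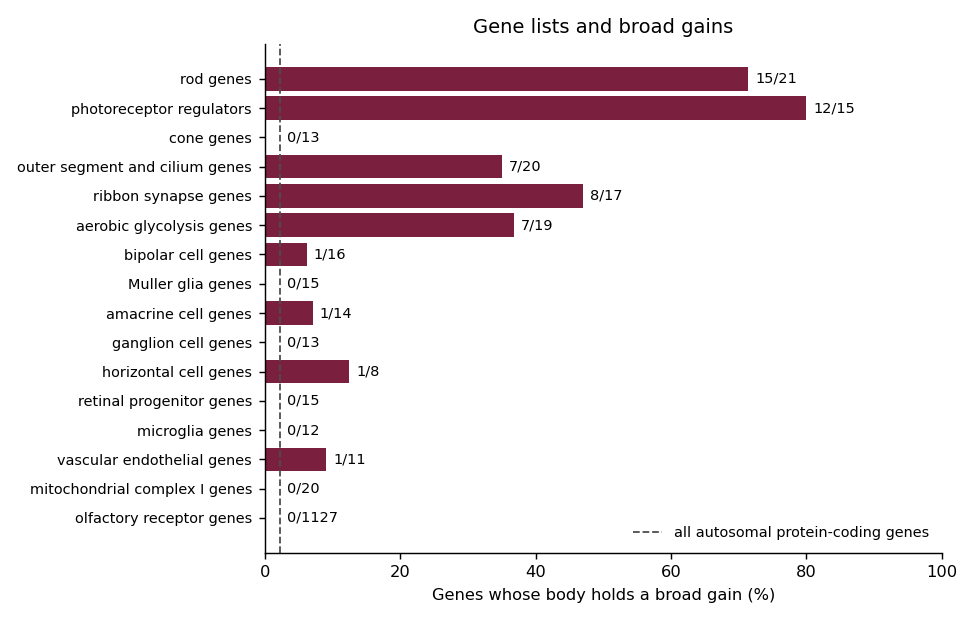
Percent of the autosomal genes of each list whose gene body holds at least 1 bp of a broad gain, with the counts beside the bars; the dashed line marks the 2.32% of all autosomal protein-coding genes. The bars of rod genes (15 of 21) and photoreceptor regulators (12 of 15) are the longest, and those of cone and Müller glia genes are at 0.

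The rod phototransduction cascade runs from transducin (Gnat1, Gnb1, Gngt1) through phosphodiesterase (Pde6a, Pde6b, Pde6g) to the cyclic nucleotide-gated channel (Cnga1, Cngb1), and each of these genes held a broad gain. At Gnat1, the alpha subunit of rod transducin, the broad gain at chr9:107676416-107683062 ran from -3350 to 3296 bp of the gene start and reached Sema3f, and rose from 32.4% to 53.2%. With 17.3% and 4.61% its 5hmC lay below the lower quartile of broad gains in both groups. Gnb1, the beta subunit, which many cell types use, held 4 broad gains over 37.3% of the gene, the longest of 13499 bp at chr4:155531176-155544674 (47.7% to 84.7%). Gngt1, the gamma subunit, had one of the highest 5hmC levels, 43.0% in Cre- and 10.6% in Tet tcKO, on 57.1% of the CpGs of a region of 3273 bp.

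Pde6b, the beta subunit of the phosphodiesterase, held the fifth longest broad gain, 16118 bp at chr5:108387968-108404085, from -423 to 15694 bp of the start. It rose from 40.0% to 76.5%, and 47.2% of its CpGs lay in 5hmC losses, with 22.8% and 5.69% of 5hmC. At Pde6g, the inhibitory gamma subunit, 1 broad gain covered the whole gene (40.9% to 74.8%). At Pde6a, the alpha subunit, the broad gain also spanned the start (39.1% to 78.6%). Cnga1, the channel's alpha subunit, held 2 broad gains (35.6% to 73.7% and 56.9% to 84.1%) and Cngb1, its beta subunit, 1. Start sites thus lay inside broad gains of Gnat1, Pde6a, Pde6b, Pde6g, Cnga1 and Cngb1, whereas the 4 broad gains of Gnb1 lay inside the gene and that of Gngt1 began 1052 bp after the start and ran past the gene end.

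Genes that end the light response showed the same kind of region. Sag, rod arrestin, held a broad gain of 15143 bp at chr1:87801332-87816474 over its start (42.9% to 76.4%, 5hmC 26.4% to 6.94%). Grk1, the kinase of the visual pigment, held one of 8459 bp over its start (38.2% to 75.8%). Rcvrn, the calcium sensor recoverin, held one over 87.1% of the gene (41.4% to 79.5%), and the exchanger Slc24a1 one inside it (53.0% to 76.0%). Prph2, of the disc rim, counted through 681 bp at its end, in a region shared with Ubr2. The rod genes without a broad gain were Guca1a, Guca1b, Reep6, Rom1, Rp1 and Samd7, and gains of any length still covered 92.4% of Rom1, which is 1966 bp long, and 6.17% of Rp1.

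Among the regulators, Nrl, the leucine zipper factor that sets rod fate, held a broad gain of 6356 bp at chr14:55521261-55527616, from -2635 to 3720 bp of its start (35.7% to 70.3%, 5hmC 17.8% to 5.16%). Nr2e3, the receptor that represses cone genes in rods, held one of 10482 bp over 58.6% of the gene (34.7% to 73.2%, 5hmC 18.4% to 4.38%). Otx2, which acts early in photoreceptor precursors, held one near the lower limit (21.4% to 40.9%, 5hmC 15.6% to 4.11%), with a smaller rise than the others of this list. At Crx, the photoreceptor homeobox gene, the broad gain covered 1536 bp at the end of the gene and ran beyond it (28.6% to 65.8%), and only 1 bACE-seq region overlapped it. Prdm1, which holds precursors on the photoreceptor path, had its broad gain far inside the gene (45.6% to 78.5%).

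Casz1 showed how broad gains differ within 1 gene. Its 8 broad gains, of 3256 to 7488 bp, lay between 3058 and 125009 bp from the start, with Cre- levels from 24.6% to 52.2% and Tet tcKO levels from 50.5% to 79.5%. The one nearest the start was the lowest in both, with 5hmC of 13.4% and 2.69%, while the other 7 had 26.7% to 31.8% and 6.98% to 9.47%. Mef2d, a transcription factor of neurons and muscle, held a broad gain of 9985 bp (27.0% to 60.5%) whose 5hmC level of 30.5% exceeded the WGBS level in Cre-, the 2 values being over different CpGs. The nuclear receptors Esrrb (3), Rora (2) and Rorb (2) held several each. The regulators without one were Lhx4, Mef2c and Neurod1.

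**Figure D5:**
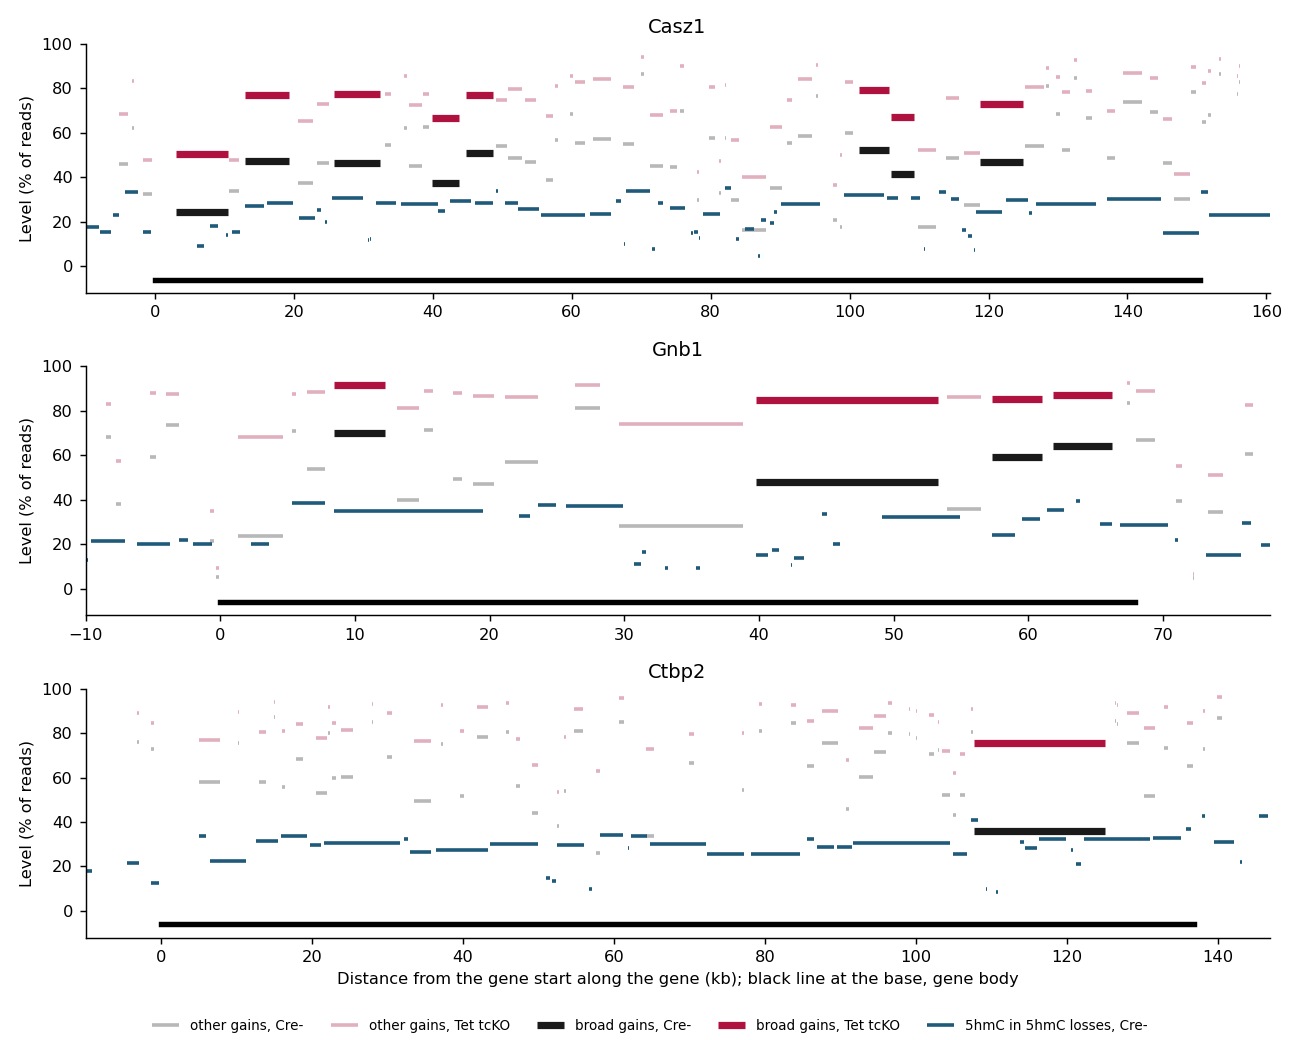
Levels in percent of reads along Casz1, Gnb1 and Ctbp2 by distance in kb from the gene start; thick lines are broad gains and thin lines other WGBS gains, each drawn in Cre- (black or grey) and Tet tcKO (red or pink), thin blue lines are 5hmC losses at their Cre- level, and the black line at the base is the gene body. Casz1 holds 8 broad gains, Gnb1 holds 4 and Ctbp2 holds 1 of 17441 bp.

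In the ribbon list, Ctbp2 held the third longest broad gain, 17441 bp at chr7:132999306-133016746 with 264 CpGs. This gene encodes a transcriptional corepressor and, from an internal start, the ribbon protein RIBEYE. The region contained an annotated internal start at position 133015247 and rose from 36.0% to 75.8%, close to the limit on the rise, with 5hmC of 28.6% and 8.24%. Unc119, a lipid-binding trafficking protein of photoreceptors, had 75.4% of its body in a broad gain (31.7% to 58.8%). Stx3, the syntaxin of ribbon synapses, held 2 that differed, 20.2% to 51.9% near the start and 47.1% to 77.3% further in. The calcium channel subunit genes Cacna2d4 and Cacnb2, the channel regulator gene Cabp4, Cplx4 and Lrit1 also held one or more.

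Of outer segment and cilium genes, Rp1l1, a microtubule protein of the outer segment, held 2 broad gains over 36.3% of the gene. The one over the start rose from 35.5% to 71.5% and the inner one from 58.4% to 82.6%, with 5hmC in Cre- of 17.9% and 32.4%. Prom1, of the disc edge, held 3, also lowest towards the start (40.5%, 50.4% and 64.0% in Cre-) and with 5hmC of 21.1%, 30.8% and 32.7% in the same order. This order was not shared by all genes with several broad gains, since in Gnb1 the one nearest the start was the highest in total modification (69.8%) and in 5hmC (35.04%) in Cre-. Mak, a kinase of the cilium, held one of 8043 bp, and Impg1, Impg2, Rpgrip1 and Pcdh15 held one each.

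The glycolytic hosts were Slc2a1, the glucose transporter GLUT1, Hk1, Gapdh, Eno1, Pkm and Ldha of the pathway itself, and Pfkfb2, whose product makes an activator of the pathway. The broad gain of Pkm, 7831 bp from 2118 to 9948 bp after the start, rose from 21.1% to 57.4%, and here too the 5hmC level of 25.4% was above the WGBS level in Cre-. That of Ldha, 7218 bp at chr7:46847121-46854338, rose from 46.5% to 72.7% with 5hmC of 28.3% and 7.52%. Slc2a1 held 2, of which the one nearer the start was lower (26.0% to 55.7%, 5hmC 15.5%) than the other (57.5% to 79.4%, 5hmC 28.3%). Gapdh and Eno1 have many pseudogene copies, and how reads were shared between copies was not analysed here.

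Of the hosts for other cell types, 3 are described here. Kdr, the endothelial VEGF receptor, held a broad gain of 3083 bp (23.8% to 48.6%, 5hmC 11.1% to 2.39%). Prox1, of horizontal and other inner retinal cells, held 3 with 5hmC from 17.7% to 20.1% in Cre-. The broad gain of Slc6a9, a glycine transporter gene, had 23.9%, so that these 3 genes lay below the median 5hmC of broad gains. This did not set them apart, since most rod genes with a broad gain lay below it too, Gnat1 (17.3%) and Nrl (17.8%) among them. The rod genes above it were Gnb1, Gngt1, Prph2 and Rcvrn. Tet3, one of the genes deleted by design, also held 3 broad gains (4239 to 6065 bp), with Cre- levels from 21.9% to 49.2% and Tet tcKO levels from 60.9% to 78.0%. Tet1 and Tet2, deleted by the same design, were not among the host genes. Whether the Tet3 regions overlap the deleted part of the gene was not tested.

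Gains of any size were also counted along the genes. The median share of a gene in WGBS gains was 52.2% for rod genes, 46.6% for photoreceptor regulators and 4.87% for cone genes, beside 5.97% for amacrine cell genes and 2.82% for ganglion cell genes. The shares in 5hmC losses were 60.4% for rod genes, 61.0% for the regulators and 34.1% for cone genes. Single cone genes ranged from 1.27% in Rxrg, a nuclear receptor gene, to 53.4% in Kcne2, with 34.5% in Gngt2, 32.1% in Gnb3 and 25.97% in Gnat2, the subunits of cone transducin, and 3.59% in Opn1sw, the short-wavelength opsin. 5hmC losses covered 53.7% of Rxrg, 42.9% of Opn1sw and 61.4% of Gnat2.

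The longest broad gains were chosen by length. The first, 22739 bp at chr10:78286779-78309517 in Agpat3, an acyltransferase of phospholipid synthesis, held 231 CpGs and rose from 42.5% to 78.8%, with 68.4% of its CpGs in 11 bACE-seq regions (28.0% to 7.59%). The second, 20129 bp at chr13:98905271-98925399 in Tnpo1, which encodes a nuclear import receptor, rose from 38.9% to 76.3% (5hmC 29.0% to 7.65%). The fourth, 16497 bp at chr15:31349189-31365685 in Ankrd33b, rose from 42.8% to 75.3% (5hmC 24.7% to 7.41%). The 5 largest area statistics, which grow with the number of CpGs, included those of Ctbp2, Mn1 and Agpat3. That of Mn1 had more CpGs per 100 bp (6.56) and lower 5hmC (13.8% in Cre-) than the median broad gain.

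At the ends of the 5hmC range, among the 579 broad gains with 50% or more of their CpGs in a 5hmC loss, the highest Cre- level was 44.8% in Zfp654, a zinc-finger gene, at chr16:64845460-64848793. It fell to 8.60% in Tet tcKO while WGBS rose from 65.3% to 86.5%. Next came regions of Gngt1 (43.0%), Rbbp6 (40.0%) and the noncoding genes A330023F24Rik (39.9%) and 5031425E22Rik (39.8%). The lowest were in Zfhx3 (11.0%), Cdca7l (11.3%), Tacc2 and Dlc1 (both 12.6%) and the noncoding gene Gm17750 (12.9%). Their WGBS levels in Cre- were 23.95% to 34.6%, below the 41.7% to 65.3% of the 5 with the most 5hmC. Because WGBS also reads 5hmC, these levels are not independent.

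The 9 broad gains with no bACE-seq region differed in how many CpGs stood behind their values. In 8 of the 9, fewer than 80% of the CpGs of the reference were listed, against 13 of all 667 broad gains. The longest, chr6:88567154-88573412 in Kbtbd12, lay wholly in repeats and listed 30 CpGs (51.9% to 69.9%). Next came chr12:19522835-19527580 with 4 of 28 CpGs, chr9:65980797-65985406 in Csnk1g1 with 4 of 16, chr4:133097036-133101425 with 5 of 155 and a rise of 2.14 points, and chr6:31799563-31803798 in Gm13849 with 35 of 92. Whether reads from repeats bear on these values was not tested. Without the 13 regions the count was 654, the median Cre- 5hmC level 27.2% and the share of photoreceptor list genes with a broad gain 56.3%.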

How the data were processed

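WGBS and bACE-seq were each run on 3 Cre- and 3 Tet tcKO samples, each of retinas pooled from 2 animals and shared by both assays per the study's methods. Per the study's methods and the submitters' processing notes, reads were trimmed with Trim Galore 0.4.4, aligned to mm10 with Bismark 0.18.2, filtered with SAMtools 1.15.1, freed of duplicates with Picard and summed per CpG with MethylDackel 0.6.1. The authors called regions with DSS after smoothing, and the deposited methylation levels are fractions from 0 to 1, 1 mean per group, printed here as percent. The first level was taken as Cre- and the second as Tet tcKO from the order of the groups in the list's name and in the study's supplementary table. The deposited area statistic is a score that the authors obtained by summing test statistics over CpGs, and it was used here only to order regions. Smoothing and merging of neighbouring CpGs shape the lengths, and regions that missed the call are not listed. Depth per library was not analysed here.

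Regions were selected, intersected and annotated with Python 3.11.15, pandas 2.3.3 and numpy 2.4.6, using GRCm38 with 32093 annotated genes and RefSeq promoters. bACE-seq levels were weighted by CpGs, and an overlap of 1 bp counted. Sequence windows avoided untranslated and noncoding exons. The steps were tested on 300 simulated regions. Named were the 5 longest regions, the 5 with the largest area statistic, the 5 highest and 5 lowest in 5hmC, the 5 longest without a bACE-seq region, and regions of listed genes. Some regions and sequences that these choices name are not reported here. Other genes named, such as Tet3 and the cone genes, and the genes of clusters were picked with their values in view. The members and lists were chosen with earlier results of these data known. Alternatives covered length, level limits, joining, overlap, promoter window and gene definition.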

Additional observations from a re-analysis of the deposited data

How the results depend on the processing

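The lists hold 1 mean per group, so no replicate could be left out and depth could not be weighed. No paired analysis was possible because the lists carry no value per replicate. Of 73 alternatives, 34 stayed within a set range of the reported value, 36 moved beyond it and 3 changed the sign of a relation near 0. That range was a 95% interval that treated regions or genes as independent, although many broad gains were neighbours. For the number of broad gains it was a fixed factor. The range holds no spread between animals. Where a value moved, the cause was not tested beyond what the setting itself changes. The 4 alternatives that required 80% of reference CpGs to be listed were added after seeing the data and moved nothing.

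The number of broad gains was 2314 at 2000 bp, 159 at 5000 bp and 1257 after joining gains within 500 bp. At 2000 bp, 80% of CpGs lay in 5hmC losses, 5hmC was 25.61% in Cre- and 6.622% in Tet tcKO with 25.91% kept, WGBS minus bACE-seq rose by 44.14 points (47.4 as selected), 8.902% held a start site, and midpoints were 76.23% in gene bodies and 10.93% intergenic. At 5000 bp, 71.82% of CpGs lay in losses, the difference rose by 50.5 points, 30.82% held a start site, 18.87% of midpoints were in promoters and 0.6289% intergenic, 25.16% had a broad gain within 10 kb, and 33.8% of photoreceptor list genes were hosts, beside 0.6304% of all genes. Without limits on level, 73.68% of CpGs lay in losses and Cre- 5hmC was 26.54%. With losses of at least 10 points, the values were 73.68% of CpGs, 28.1% and 7.376%. By bases in place of CpGs, the share was 65.27%. With bACE-seq regions mainly inside the gain, 5hmC was 26.01% and 6.879%. Subtracting 1 point from both levels left 23.25% kept. Start sites of protein-coding genes alone lay in 11.54%. A promoter window of 1 kb gave 6.897% in promoters and 86.96% in gene bodies, and one of 5 kb 42.73% and 52.17%. Neighbours within 5 kb were found for 22.94% and within 50 kb for 40.78%. Around start sites alone, 43.66% of photoreceptor list genes were hosts, beside 1.16% of all genes. The rank relation of 5hmC change (Tet tcKO minus Cre-) and WGBS rise was -0.1392 at 2000 bp, where a negative value means larger losses with larger rises. It turned to 0.02937 at 5000 bp, 0.03904 without limits on level and 0.03175 with bACE-seq regions mainly inside the gain.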
